A study of Mus musculus with 4 samples.

Results

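The genes described here are the core of Jak-Stat signalling in mouse KL cells (Lin-, cKIT+, Sca-1-), a myeloid progenitor population, in the setting of *Bcor* loss. They were taken by name from the gene column of the deposited count table, and 9 of the 10 genes looked for were among its 12067 genes. These were the Jak kinase genes *Jak1*, *Jak2*, *Jak3* and *Tyk2*, the transcription factor genes *Stat3*, *Stat5a* and *Stat5b*, and the feedback inhibitor genes *Socs2* and *Socs3*. *Cish*, the third inhibitor gene, had no row in the table and therefore no value here.

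The data were 4 libraries of donor-derived (CD45.2+) KL cells, sorted from recipient bone marrow 20 weeks after transplantation and measured by Quant-seq, which counts transcripts by reads near their 3′ ends. The 2 BcorΔE9-10 libraries came from donors of genotype scl-Cre-ERT +; Bcorfl/y and the 2 BcorWT libraries from Bcorfl/y donors without the Cre. All donors thus carried the floxed allele on their single X chromosome, and per the study's methods all received tamoxifen, whereas Cre itself was present in the BcorΔE9-10 donors only. This Cre is driven by a stem cell enhancer of the *Scl* (*Tal1*) gene, so the allele is meant to be recombined in haematopoietic stem cells and inherited by the KL cells. The recipients were Ptprca mice (CD45.1) given a sub-lethal dose of radiation, which leaves host blood formation in place. The labels give no age and do not say whether each library came from 1 animal, so p-values measure the spread between these libraries.

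Jak kinases are bound to the inner part of cytokine receptors and phosphorylate each other and the receptor when a cytokine binds. Stat proteins dock there, are phosphorylated, and move to the nucleus, where they bind DNA at an inverted repeat with the letters TTCNNNGAA. In myeloid progenitors Jak2 serves the receptors for erythropoietin, IL-3 and GM-CSF, Jak1 serves the interferon and IL-6 receptors, Tyk2 serves interferon and IL-12 type receptors, and Jak3 serves receptors that contain the common gamma chain. Socs proteins and Cish are switched on by Stat proteins and shut the receptor down again, so their transcripts are widely read as a trace of recent signalling.

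The promoters of the genes were searched for these letters. The RefSeq promoter table (GRCm38.p6, the build of the deposited data) held windows of 300 bases, from 250 before to 50 after the start site, for 9 of the 10 genes (all but *Socs2*), with 11 windows in all. Only the *Cish* and *Socs3* windows held the letters TTCNNNGAA, which read the same on both strands. Of all 32851 windows in that table, 8.30% held the letters at least once and 0.457% held them at least 2 times. *Cish* held them 2 times, beginning 0 and 11 bases after the start site (TTCCTGGAA and TTCTTGGAA), and *Socs3* held them once, beginning 154 bases before it (TTCTTAGAA). These windows are shown because *Cish* and *Socs3* are the feedback genes whose windows held the letters, and the windows of *Jak2* and *Jak3* because these kinase genes were, with *Socs3*, the members whose genotype groups did not overlap. Capitals mark the letters TTCNNNGAA, and a match describes letters only and is not evidence of binding.

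Cish promoter window, chr9:107296409-107296708, plus strand: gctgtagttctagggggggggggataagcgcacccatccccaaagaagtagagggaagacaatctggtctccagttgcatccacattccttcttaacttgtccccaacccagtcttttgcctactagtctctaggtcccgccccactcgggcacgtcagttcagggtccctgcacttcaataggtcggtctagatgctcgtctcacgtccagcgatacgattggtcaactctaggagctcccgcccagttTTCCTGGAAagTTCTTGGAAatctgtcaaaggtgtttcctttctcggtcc

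Socs3 promoter window, chr11:117969317-117969616, minus strand: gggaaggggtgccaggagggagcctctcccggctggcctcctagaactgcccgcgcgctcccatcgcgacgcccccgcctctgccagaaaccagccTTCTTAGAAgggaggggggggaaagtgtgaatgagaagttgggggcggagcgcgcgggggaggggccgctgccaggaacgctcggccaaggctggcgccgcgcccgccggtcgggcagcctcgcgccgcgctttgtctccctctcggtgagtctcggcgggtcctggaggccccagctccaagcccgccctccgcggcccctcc

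Jak2 promoter window, chr19:29251553-29251852, plus strand: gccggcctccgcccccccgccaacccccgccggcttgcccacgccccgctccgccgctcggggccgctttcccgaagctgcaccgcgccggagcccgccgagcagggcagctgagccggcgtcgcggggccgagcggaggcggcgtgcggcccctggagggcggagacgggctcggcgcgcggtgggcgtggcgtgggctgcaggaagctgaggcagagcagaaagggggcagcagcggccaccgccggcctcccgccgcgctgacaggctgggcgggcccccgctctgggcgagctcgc

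Jak3 promoter window, chr8:71676133-71676432, plus strand: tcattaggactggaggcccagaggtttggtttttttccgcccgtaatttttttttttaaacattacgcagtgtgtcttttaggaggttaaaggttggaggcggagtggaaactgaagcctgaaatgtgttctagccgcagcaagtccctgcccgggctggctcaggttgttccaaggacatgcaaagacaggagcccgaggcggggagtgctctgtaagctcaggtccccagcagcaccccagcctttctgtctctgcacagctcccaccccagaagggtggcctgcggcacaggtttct

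*Bcor* itself had 104 and 113 counts in BcorΔE9-10 and 58 and 79 in BcorWT (log2 fold change 0.25), and reads from the 3′ end do not check the loss of internal exons. Totals ranged from 3825289.5 to 6253100.5 counts. The noncoding transcript *Gm42418* took 16.3 and 14.3% of the counts in BcorΔE9-10 replicates 1 and 2 but 27.9 and 1.43% in BcorWT replicates 1 and 2, and BcorWT replicate 2 had the lowest correlations with the other libraries (Pearson's r across genes of 0.893 to 0.902). *Kit*, the receptor that defines the gate, was at 52.1 and 61.9 CPM (a gene's counts scaled to library size with TMM factors) in BcorΔE9-10 and 53.7 and 29.4 in BcorWT, and all 10 myeloid progenitor markers were present, led by *Mpo*. *Ly6a*, which encodes the Sca-1 antigen that the gate excludes, was at 0 to 3.80 CPM. Transcripts of mature neutrophils were abundant in every library, with 10 of 10 markers present and a summed level of 63520 and 155500 CPM in BcorΔE9-10 and 94670 and 144100 in BcorWT, led by *S100a8*. Among markers of other lineages, the 8 erythroid markers present of 11 summed to 158 and 139 CPM in BcorΔE9-10 and to 40.6 and 55.5 in BcorWT. They were led by the carbonic anhydrase gene *Car2*, *Rhd* was at 0 in BcorWT replicate 1, and *Epor* and *Alas2* had no row. The 9 eosinophil, basophil and mast cell markers, led by *Prg2*, summed to 276 and 248 CPM in BcorΔE9-10 and to 585 and 760 in BcorWT, with none at 0. For monocyte and dendritic cell markers, led by *Ly6c2* (8 of 9 present), the sums were 732 and 744 against 901 and 1767 CPM. For megakaryocyte, lymphocyte and stem cell markers, led by *Itga2b*, *Nkg7* and *Meis1* (3 of 7, 4 of 10 and 5 of 8 present), the ranges of the groups overlapped, and *Ly6a* and *Hoxb5* were each at 0 in 1 library. In bulk libraries such as these, fewer cells of a type and less RNA per cell cannot be told apart.

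The genotypes were compared with edgeR's quasi-likelihood test across all 12067 genes. No member reached an adjusted p under 0.05 (0 of 9, where 0.0166% of all genes did). At an unadjusted p under 0.05 there was 1 member, *Jak3*, where 4.42% of all genes were called (1.34% higher and 3.07% lower in BcorΔE9-10), and limma-voom and DESeq2 also gave 0 members at an adjusted p under 0.05. The groups did not overlap for 3 of 9 members, *Jak2* and *Socs3* higher and *Jak3* lower in BcorΔE9-10, which is 33.3% against 33.9% of all genes (16.8% higher and 17.1% lower), a share close to that of the table as a whole. Of the 9 log2 fold changes 4 were above and 5 below 0, with a median of -0.02 beside -0.03 over all genes.

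**Figure D1:**
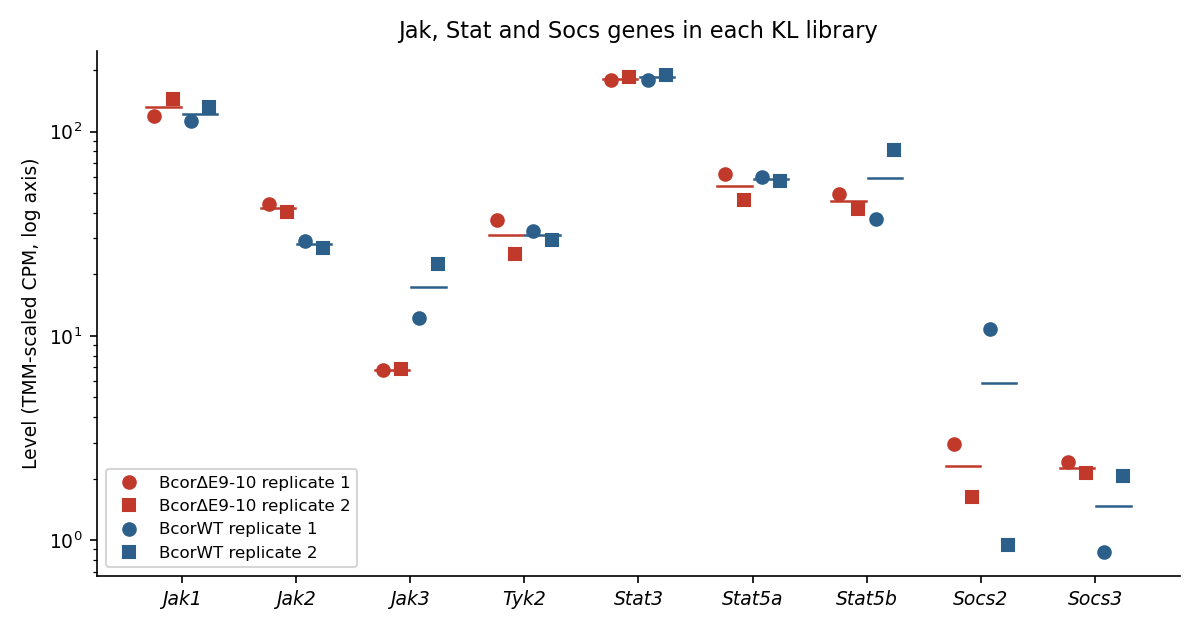
Level of each member in each library, in TMM-scaled CPM on a log axis; red symbols are BcorΔE9-10, blue symbols BcorWT, circles replicate 1, squares replicate 2, and bars the group means. *Jak2* sits higher in both BcorΔE9-10 libraries and *Jak3* higher in both BcorWT libraries, while *Stat3* is nearly level across all 4.

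Quant-seq reads come from the transcript's end, so the counts are not divided by length, although the efficiency of priming still differs between genes. On this scale *Stat3* was the most abundant member, with a mean of 183 CPM over the 4 libraries (94.2th percentile of all genes), followed by *Jak1* at 127 CPM (91.3th). *Stat5a* at 56.4 and *Stat5b* at 52.6 CPM came next, and their ranges over libraries overlapped. *Jak2* at 35.2 and *Tyk2* at 31.1 CPM also overlapped, and *Jak3* lay lower at 12.1 CPM. *Socs2* at 4.08 and *Socs3* at 1.87 CPM were the lowest, the latter at the 1.18th percentile of the table, and their ranges overlapped. The Stat genes, *Jak1*, *Jak2* and *Tyk2* had at least 100 counts in every library, whereas *Jak3* had 37 to 120 and the feedback genes 3 to 37.

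*Jak2* (chr19:29251828-29313080, plus strand, GRCm38, a protein-coding gene) had 239 and 248 counts in BcorΔE9-10 replicates 1 and 2 and 100 and 143 in BcorWT replicates 1 and 2. This corresponds to 44.2 and 40.4 CPM against 29.2 and 26.9 CPM, or 42.3 ± 2.65 against 28.1 ± 1.62 CPM (SD, n = 2). Both BcorΔE9-10 libraries were above both BcorWT libraries, and their 95% Poisson intervals, which cover counting error only, did not overlap across genotypes (the lowest bound was 35.6 CPM in BcorΔE9-10 and the highest 35.5 CPM in BcorWT). The difference was 1.51-fold, a log2 fold change of 0.59 (standard error 0.31, 95% interval -0.12 to 1.31) with an adjusted p of 0.945 in edgeR. It varied little with the libraries used, between 0.53 and 0.66 with 1 library left out. In the alternatives that kept every library, its adjusted p was at least 0.88 (limma-voom). *Epor*, a receptor gene whose product depends on Jak2, had no row in the table. The erythroid markers given above were higher in the same libraries as *Jak2*, and their part in its difference was not tested.

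*Jak3* (chr8:71676296-71690575, plus strand) lay on the other side. It had 37 and 42 counts in BcorΔE9-10 and 42 and 120 in BcorWT, at 6.84 and 6.85 against 12.3 and 22.6 CPM. The BcorΔE9-10 libraries were alike, both BcorWT libraries were higher, and these differed from each other by 0.86 in log2 CPM with a prior count of 2, which draws low values together. The log2 fold change was -1.35 (standard error 0.46, 95% interval -2.42 to -0.29), a level of 0.391 of that in BcorWT, with an unadjusted p under 0.05 but an adjusted p of 0.945 in edgeR. In the alternatives that kept every library, the adjusted p ranged from 0.88 (limma-voom) to 0.999 (replicate block). Without BcorWT replicate 1 the log2 fold change was -1.72, without BcorWT replicate 2 it was -0.84, and without either BcorΔE9-10 library it was -1.35. Each of these fits leaves 1 library in a group, so the other group alone gives the spread, and only the fold change is read from them. The eosinophil, basophil and mast cell markers and the monocyte and dendritic cell markers given above had lower sums in the same libraries as *Jak3*, and both sums were, as for *Jak3*, highest in BcorWT replicate 2. Their part in its difference was not tested.

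The counts of *Jak3* are uncertain in a further respect. In GENCODE M21, *Insl3*, which encodes an insulin-like hormone of the testis, lies on the same strand and shares 404 exonic bases with *Jak3* (chr8:71690172-71690575) up to the end of both genes, which 1 of the 5 annotated *Jak3* transcripts reaches. *Insl3* itself had 28 and 25 counts in BcorΔE9-10 and 36 and 87 in BcorWT, a log2 fold change of -1.54 (standard error 0.48) with an adjusted p of 0.945 in edgeR. *Jak3* made up 56.9 and 62.7% of the counts of both genes in BcorΔE9-10 and 53.8 and 58.0% in BcorWT, with 95% Wilson intervals that all overlapped. Both genes were thus lower in both BcorΔE9-10 libraries. *Insl3* was examined after the counts had been seen, and how the counting treated reads in the shared bases is not given in the sources used here.

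For *Jak1* and *Tyk2* no difference was detectable. *Jak1* (chr4:101152367-101265282, minus strand) was at 120 and 144 CPM in BcorΔE9-10 and at 113 and 132 in BcorWT, with overlapping groups, and its log2 fold change was 0.11 (standard error 0.31, 95% interval -0.61 to 0.84). *Tyk2* (chr9:21104068-21131243, minus strand) was at 37.0 and 25.3 CPM against 32.7 and 29.4, and both BcorWT values lay between the BcorΔE9-10 values. Its log2 fold change was 0.00 (standard error 0.34, 95% interval -0.78 to 0.79). These intervals leave room for changes of either sign, and both genes changed sign when 1 library was left out.

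Shares within the kinase family do not depend on how libraries were scaled. *Jak2* made up 21.2% (95% Wilson interval 19.0 to 23.7%) and 18.6% (16.6 to 20.8%) of the counts of the 4 kinase genes in BcorΔE9-10. It made up 15.6% (13.0 to 18.6%) and 12.8% in BcorWT, so the groups did not overlap, although the intervals of 1 pair of libraries did. *Jak3* made up 3.29 and 3.16% in BcorΔE9-10 and 6.55 and 10.7% in BcorWT. *Jak1* held the largest share in every library, from 57.7 to 66.5%, and its groups overlapped, as did those of *Tyk2* at 11.7 to 17.8%. The order of the groups for *Jak2* and *Jak3* was thus the same in these shares as in CPM. The shares use the same counts as the CPM, and a lower share of 1 gene raises the others, so this is not separate support.

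**Figure D2:**
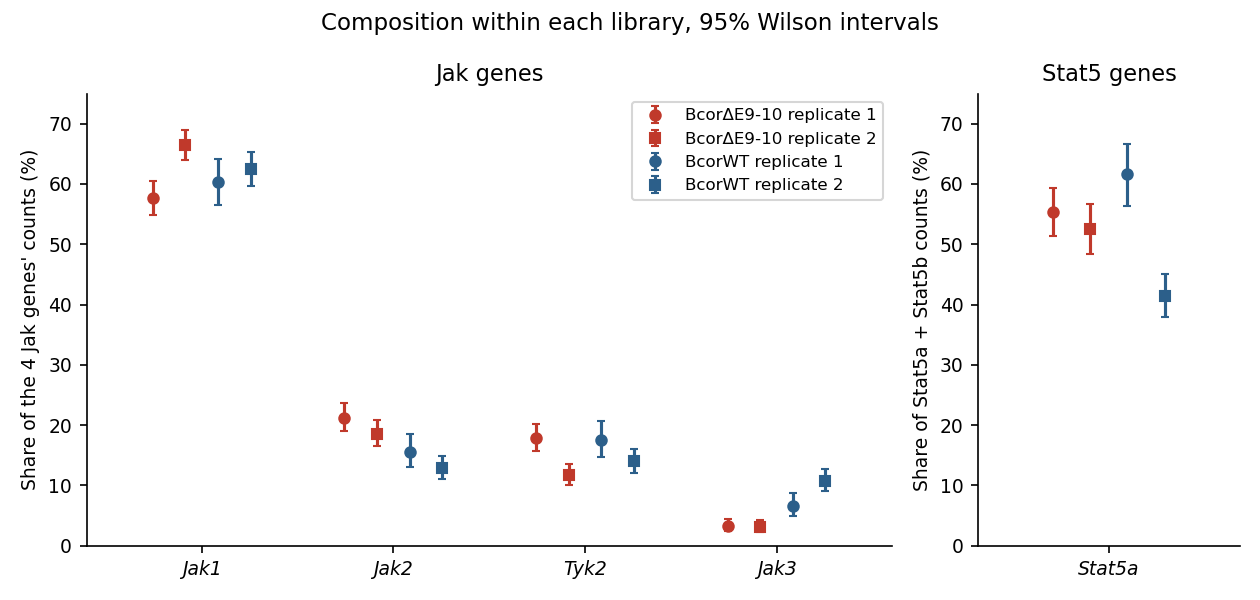
Share of each kinase gene in the summed counts of *Jak1*, *Jak2*, *Tyk2* and *Jak3* (left), and share of *Stat5a* in the counts of *Stat5a* and *Stat5b* (right), in percent per library, with 95% Wilson intervals that cover counting error only. *Jak2* takes 18.6 to 21.2% in BcorΔE9-10 and 12.8 to 15.6% in BcorWT, and the *Stat5a* share is widest apart between the 2 BcorWT libraries.

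*Stat3* (chr11:100885098-100939540, minus strand), the factor downstream of IL-6 and G-CSF, was the steadiest member. It had 963 and 1135 counts in BcorΔE9-10 and 610 and 1011 in BcorWT, which came to 178 and 185 against 178 and 190 CPM. All 4 libraries lay close together, and the log2 fold change was -0.02 (standard error 0.30, 95% interval -0.73 to 0.68). The 3′ ends of *Stat3* and *Stat5a* share 72 bases on opposite strands, and whether the counting used the strand is not given in the sources used here.

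*Stat5a* (chr11:100859351-100885169, plus strand) and *Stat5b* (chr11:100780731-100850724, minus strand) are neighbouring genes whose products act downstream of Jak2. *Stat5a* was at 61.7 and 46.3 CPM in BcorΔE9-10 and at 60.2 and 57.6 in BcorWT, with both BcorWT values inside the BcorΔE9-10 range and its log2 fold change was -0.12 (standard error 0.32). *Stat5b* was at 49.7 and 41.9 CPM in BcorΔE9-10 and at 37.4 and 81.5 in BcorWT. The BcorWT libraries here lay on either side of both BcorΔE9-10 libraries, 1.12 apart in log2 CPM with a prior count of 2, against a median of 0.57 over all genes for the same pair of libraries. The log2 fold change of *Stat5b* was -0.38 (standard error 0.41), and it was -0.84 without BcorWT replicate 1 but 0.29 without BcorWT replicate 2. The direction for *Stat5b* therefore rested on BcorWT replicate 2.

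The balance between the paralogues was compared within libraries. *Stat5a* made up 55.4% (95% Wilson interval 51.4 to 59.3%) and 52.5% (48.3 to 56.7%) of *Stat5a* and *Stat5b* counts in BcorΔE9-10. It made up 61.7% (56.4 to 66.7%) in BcorWT replicate 1 and 41.4% (37.9 to 45.0%) in BcorWT replicate 2. The means were 53.9 ± 2.05 and 51.5 ± 14.3% (SD, n = 2), a difference of 2.40 percentage points with p = 1.0 in an exact two-sided permutation test, whose smallest possible p with 2 libraries a group is 0.333. It was 12.5 points without BcorWT replicate 1 and -7.73 points without BcorWT replicate 2, so its direction rested on these libraries. The difference between the 2 BcorWT libraries thus exceeded counting error and the difference between the genotype means.

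*Socs2* (chr10:95385362-95417180, minus strand), a Stat5-induced inhibitor of growth hormone and cytokine receptors, had 16 and 10 counts in BcorΔE9-10 and 37 and 5 in BcorWT. These are 2.96 and 1.63 CPM against 10.8 and 0.941 CPM, so that the highest and the lowest library were both BcorWT. The Poisson intervals of the BcorWT libraries, 7.61 to 14.9 and 0.306 to 2.20 CPM, did not overlap, and their difference of 3.07 in log2 CPM with a prior count of 2 was the largest between replicates of any of the 9 members. The log2 fold change between genotypes was -1.31 (standard error 1.03, 95% interval -3.69 to 1.07), and it was 1.25 without BcorWT replicate 1 and -2.24 without BcorWT replicate 2. No direction can be given for *Socs2* from these libraries. The order of the libraries for *Socs2* was also that of the *Gm42418* shares given above, whose part in it was not tested.

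*Socs3* (chr11:117966079-117970047, minus strand), an inhibitor of the IL-6 and G-CSF receptors, had 13 and 13 counts in BcorΔE9-10 and 3 and 11 in BcorWT. At 2.40 and 2.12 against 0.876 and 2.07 CPM the groups did not overlap, but the 2.07 CPM of BcorWT replicate 2 lay just below the 2.12 CPM of BcorΔE9-10 replicate 2. The value of BcorWT replicate 1 was at the floor of 3 counts, with a Poisson interval of 0.181 to 2.56 CPM that held the values of all other libraries. The log2 fold change was 0.56 (standard error 0.78, 95% interval -1.24 to 2.36), and a difference was not detectable at this depth. It was 0.12 without BcorWT replicate 1 and 1.34 without BcorWT replicate 2, so its size rested on which BcorWT library was used. Of the 2 genes whose windows held the letters TTCNNNGAA, *Cish* thus had no row and *Socs3* very few reads.

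**Figure D3:**
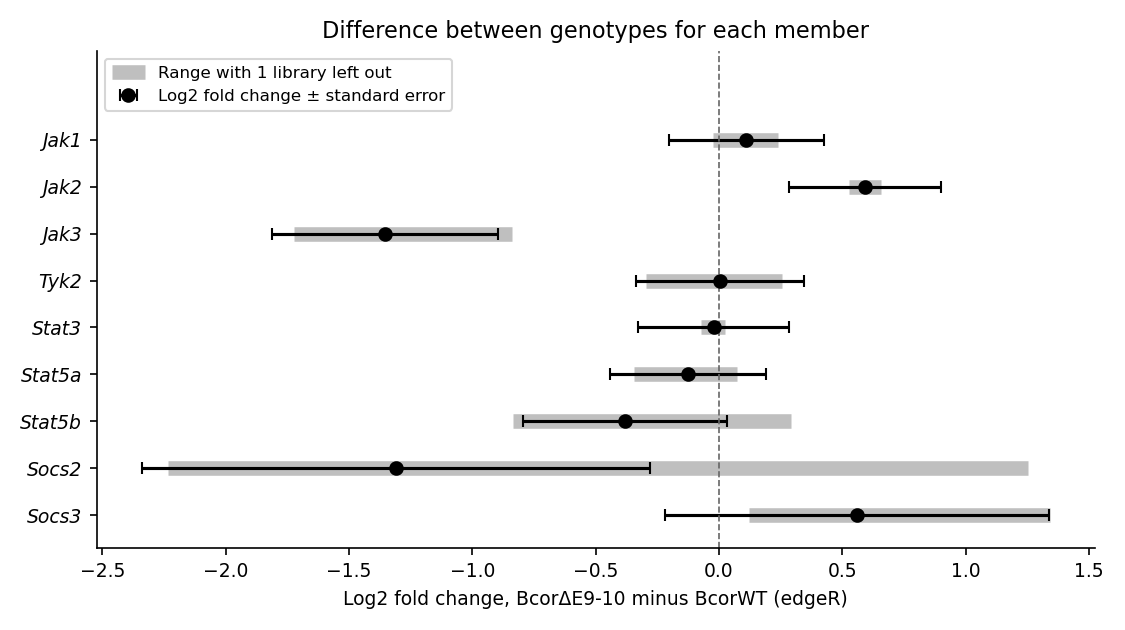
Log2 fold change of each member between BcorΔE9-10 and BcorWT from edgeR, with its standard error (black) and the range over the 4 fits that leave out 1 library (grey). *Jak2* stays between 0.53 and 0.66 and *Jak3* between -1.72 and -0.84, whereas *Socs2* spans -2.24 to 1.25.

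The genes whose pattern over the 4 libraries was nearest to that of the feedback genes were sought among all genes with a mean of at least 20 CPM, by the root mean square distance of centred log2 CPM (prior count of 2). For *Socs2* these were *Lars2*, which encodes the mitochondrial leucyl-tRNA synthetase (distance 0.224), at 34.4, 27.9, 111 and 12.0 CPM in BcorΔE9-10 replicates 1 and 2 and BcorWT replicates 1 and 2, and the predicted gene *Gm12346* (0.242) at 33.5, 26.4, 180 and 18.1 CPM. For *Socs3* they were *Tonsl* (0.0797), a DNA repair gene, and *Ywhaq* (0.0901), which encodes a 14-3-3 protein. The order of the libraries for *Lars2* and *Gm12346* was, as for *Socs2*, that of the *Gm42418* shares, whose part was not tested. With 4 libraries and a handful of counts for *Socs2* and *Socs3*, such likeness is a description only.

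The rest of the pathway was taken from lists of other Stat genes, other Socs and Pias genes, phosphatases and adaptors, Jak-dependent cytokine receptors, and targets of Stat5 and Stat3. None of the genes on these lists reached an adjusted p under 0.05 in edgeR, limma-voom or DESeq2 (0 in each list), and 2 had an unadjusted p under 0.05, *Socs1* and *Sh2b2*, both lower in BcorΔE9-10, where 3.07% of all genes were called in that direction. Among the 4 other Stat genes, 1 had a log2 fold change above 0 and 3 below, with a median of -0.30 beside -0.03 over all genes. The groups did not overlap for 2 of the 4, beside 33.9% of all genes, 1 in each direction. These were *Stat2* (log2 fold change 0.45) and *Stat6* (-0.41), which were named after their values were seen, and both had 95% intervals that include 0.

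Among the 9 other Socs and Pias genes, 3 had a log2 fold change above 0 and 6 below, with a median of -0.18, and the groups did not overlap for 2 (22.2%, beside 33.9% of all genes). *Socs1*, an inhibitor of Jak kinases induced by interferons, had 48 and 80 counts in BcorΔE9-10 and 44 and 271 in BcorWT. At 8.87 and 13.0 against 12.8 and 51.0 CPM the groups overlapped, and only BcorWT replicate 2 stood out. Its log2 fold change of -1.55 (standard error 0.61, adjusted p = 0.945 in edgeR) was -0.23 without that library and -2.22 without BcorWT replicate 1. Both of these fits hold a single BcorWT library, so the BcorΔE9-10 libraries alone give the spread. In the alternatives that kept every library, the adjusted p ranged from 0.784 (DESeq2) to 0.999 (replicate block). *Socs7*, the most abundant of the list, was at 45.8 and 39.9 against 35.6 and 54.4 CPM.

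Among the 14 phosphatases and adaptors, 6 had a log2 fold change above 0 and 8 below, with a median of -0.16, and the groups did not overlap for 7 of 14, 2 higher and 5 lower, where 33.9% of all genes did not overlap. *Sh2b2*, an adaptor that binds Jak2, was at 19.2 and 19.4 CPM in BcorΔE9-10 and at 29.8 and 66.6 in BcorWT. Both BcorWT libraries were higher and differed from each other, as for *Jak3*. Its log2 fold change was -1.32 (standard error 0.43, adjusted p = 0.945 in edgeR), or -0.63 without BcorWT replicate 2 and -1.79 without BcorWT replicate 1. The last 2 values again rest on a single BcorWT library, with the spread from the BcorΔE9-10 libraries alone. With every library kept, the adjusted p ranged from 0.622 (DESeq2) to 0.973 (replicate block). *Grb2*, the adaptor that links receptors to Ras and the most abundant of the list, was at 183 and 195 against 159 and 212 CPM.

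Of the 29 receptor genes only 18 (62.1%) were in the table, 7 with a log2 fold change above 0 and 11 below, with a median of -0.09, and the groups did not overlap for 2 (11.1%). *Ifngr1*, the ligand-binding chain of the interferon gamma receptor and the most abundant, was at 477 and 403 against 441 and 358 CPM. Of 15 Stat5 targets 14 were present, 4 above and 10 below 0 with a median of -0.11, and the groups did not overlap for 5 (35.7%), close to the 33.9% of all genes. *Ccnd3*, which encodes cyclin D3, led the list at 441 and 583 against 550 and 513 CPM. All 14 Stat3 targets were present, 7 above and 7 below 0 with a median of 0.01, and the groups did not overlap for 3 (21.4%). *Jun*, the most abundant, was at 1857 and 1476 against 2041 and 1305 CPM. Neither target list had a gene with an unadjusted p under 0.05 in edgeR, and a p that misses the threshold does not show that their levels were alike.

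**Figure D4:**
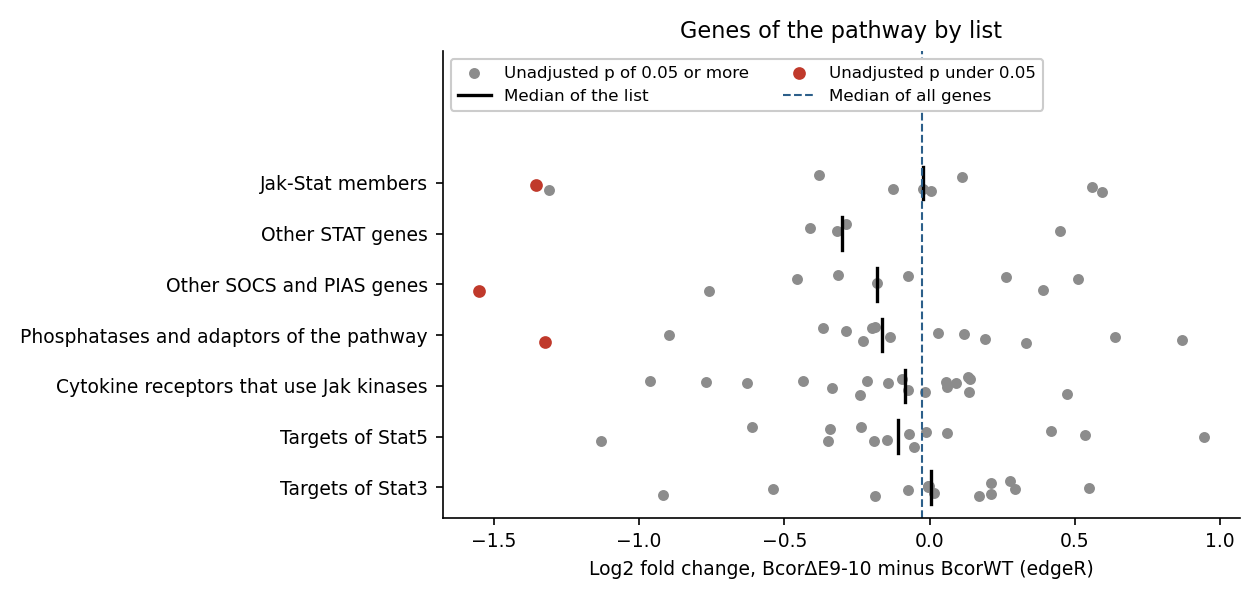
Log2 fold change between BcorΔE9-10 and BcorWT (edgeR) for every measured gene of each list, with list medians (black bars) and the median of all genes (dashed). The 3 red points, *Jak3*, *Socs1* and *Sh2b2*, are the genes with an unadjusted p under 0.05, all with log2 fold changes below 0.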

How the data were processed

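The libraries were made and processed by the authors. Per the labels and the study's methods, reads were quality-filtered, trimmed with cutadapt, mapped to mm10 (GRCm38) with HISAT2 and counted per gene with featureCounts from Subread. The deposited values are these raw counts for 12067 genes, without normalization. In BcorΔE9-10 replicate 2 and BcorWT replicate 1 the deposited values were handled like estimated counts (expected counts), because 1 gene (*Gm4430*) was not whole there, at 17.5 and 11.5, and all values were rounded. The annotation, the strand setting and the filter behind the table are not given in the sources used here.

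The counts were analysed with edgeR 4.0.16 in R 4.3.3 (filterByExpr, TMM scaling, quasi-likelihood F test, prior count 0.125 for fold changes, Benjamini-Hochberg adjustment over all genes). A standard error is the size of the log2 fold change divided by the square root of F, and CPM are TMM-scaled. The floor of 3 counts came to 0.489 to 0.876 CPM. Alternatives were DESeq2 size factors, 2 other filters, limma-voom (3.58.1), DESeq2 (1.42.0), a replicate block, a prior count of 2, leaving out *Gm42418*, and leaving out each library. The edgeR fit was tested on simulated data with 2 libraries a group and 11830 genes tested. It recovered 99 of 100 genes changed by an absolute log2 fold change of 3, but 32 of 100 changed by 1.5. There were 6 false calls. The changed genes were drawn above a minimum mean level that *Socs2* and *Socs3* do not reach. The simulated spread followed the trend with level and not each gene's own estimate. These rates are therefore not rates for the members. Positions came from GENCODE M21 and promoter windows from RefSeq. The members and lists were chosen with earlier results of these data known. Genes were named by rule: all members, in each pathway list the most abundant gene and those with an unadjusted p under 0.05, in each marker list the most abundant gene, *Kit*, *Ly6a*, and the 2 nearest genes in pattern to *Socs2* and *Socs3*. *Bcor* was added as the targeted gene. Some genes of the lists that the rule selects are not reported here. *Insl3*, *Stat2*, *Stat6*, *Rhd* and *Hoxb5* were named after their values were seen.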

Additional observations from a re-analysis of the deposited data

How the results depend on the processing

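Of 106 recomputed log2 fold changes of members 95 kept their sign, and *Jak2*, *Jak3* and *Socs3* kept it in every alternative that tested them. *Socs2* and *Socs3* had no value in the fit with at least 10 counts in every library. The fit without a filter gave the same values as the main fit. The prior count of 2 only shrinks the fold changes of that fit, so neither alternative tests the sign. *Tyk2* was -0.020 with limma-voom, -0.021 with the replicate block and -0.0068 without *Gm42418*. *Jun* was 0.018 and 0.021, and *Meis1* 0.070 and 0.020, with limma-voom and the replicate block. With 1 library left out the log2 fold change ranged for *Jak1* from -0.025 to 0.24, *Tyk2* from -0.30 to 0.26, *Stat3* from -0.072 to 0.026, *Stat5a* from -0.35 to 0.072, *Stat5b* from -0.84 to 0.29 and *Socs2* from -2.24 to 1.25. It ranged for *Socs7* from -0.35 to 0.27, *Grb2* from -0.17 to 0.25, *Ifngr1* from -0.0026 to 0.29, *Ccnd3* from -0.27 to 0.13, *Jun* from -0.29 to 0.35, *Mpo* from -0.49 to 0.20 and *S100a8* from -0.47 to 0.71. It ranged for *Itga2b* from -0.96 to 0.61, *Nkg7* from -0.87 to 0.11, *Meis1* from -0.47 to 0.60, *Ly6a* from -6.51 to 0.55, *Lars2* from -1.83 to 1.36 and *Gm12346* from -2.59 to 0.72. The lowest *Ly6a* value compares a single BcorΔE9-10 library with 0 counts, so it depends on the prior count and is no measured fold.

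The number of genes called over the table was 2, against 5 with at least 10 counts in every library, 4 with limma-voom, 43 with DESeq2, 14 with the replicate block, and 6 to 596 with 1 library left out, the highest without BcorWT replicate 1. No member was called in the alternatives that kept every library. *Jak3* alone among members had an unadjusted p under 0.05 in them, where 4.42% of all genes did in the main edgeR fit. With 1 library left out the medians ranged from -0.30 to 0.026 for members, -0.52 to -0.020 for other Stat genes, -0.35 to 0.076 for Socs and Pias genes, -0.24 to -0.043 for phosphatases and adaptors, -0.13 to 0.040 for receptors, -0.29 to 0.24 for Stat5 targets and -0.019 to 0.26 for Stat3 targets. No gene of these lists was called in the alternatives that kept every library. The causes were not tested. A fit with 1 library left out has 1 library in that group, so the other group alone gives its spread. Same-numbered libraries share only a number, with a correlation of -0.0945 between their deviations from the group means, and the replicate block gave 0 member calls. *Socs3* ranged from 0.12 to 1.34 with 1 library left out, at 3 to 13 counts a library. For *Socs2*, *Jak3* and *Stat5b* the 95% Poisson intervals of the 2 BcorWT libraries, which cover counting error only and treat reads as independent, did not overlap.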
